A study of Mus musculus with 8 samples.

Results

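Assembly of the large ribosomal subunit was followed through the transcripts of 42 genes that encode its assembly factors, out of 16279 genes in the authors' table of input RNA. The genes were taken as a list of known factors with no threshold on their values, though the list was drawn up with earlier results of these data known, and all 42 were present with an adjusted p. They were placed by where each factor is best known to act, with 29 at nucleolar steps, 10 at nucleoplasmic steps and 3 at export or in the cytoplasm. The cells were N2a, a line derived from a mouse neuroblastoma. They had received an siRNA targeting Emg1 or a control siRNA 48 h before harvest, and no other allele or agent is named in the labels. Poly(A) RNA was sequenced as input and after immunoprecipitation (IP) of N6-methyladenosine (m6A), with 2 libraries in each of 4 groups: IP after knockdown, IP after control, input after knockdown and input after control. The labels do not state that the 2 libraries of a group were separate cultures. The DESeq2 p-values of input RNA thus measure the spread between these libraries, which may be technical. The peak caller is not stated, so whether the false discovery rates of the m6A peaks measure any spread between libraries is not known.

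The large subunit begins in the nucleolus, where factors fold the precursor RNA, bring in the ribosomal proteins and guide removal of the spacers. The particle then moves to the nucleoplasm, where the second internal spacer is cut and large ATPases and GTPases strip off factors, and an adaptor takes it through the nuclear pore. In the cytoplasm the last factors leave and the last ribosomal proteins take their places. EMG1 itself modifies 18S rRNA and works on the small subunit, so the genes described here belong to the pathway of the other subunit.

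The deposited tables hold no value per library, so levels by sample cannot be shown, and each difference below is the authors' log2 fold change, knockdown over control, with its standard error (SE). Fewer cells of a type and less RNA per cell cannot be told apart in such data. Emg1 stood at 30.2% of control in knockdown cells, a log2 fold change of -1.73 ± 0.11 (SE) in the authors' deposited table (DESeq2 adjusted p = 3.37e-54). Of 12 neuroblastoma markers, 11 were matched in the table and 10 had a mean normalized count of at least 100, up to 10441 for Hand2, a transcription factor of the sympathoadrenal lineage. Of 5 leukocyte markers 2 were matched and reached at most 15.4. Pdgfra at 1357, Mbp at 688 and Pecam1 at 407 led the fibroblast, glial and endothelial lists, the last with 2 of 3 markers matched. Markers also moved with the knockdown: 8 of the 11 neuroblastoma markers were called higher by the authors' DESeq2 adjusted p, among them Insm1 at 227%, Mycn at 175% and Phox2a at 151% of control, and Th was called lower at 48.1% of control in the authors' deposited table. Of the 4 matched fibroblast markers Pdgfrb was called lower, at 50.8% of control in the authors' deposited table. The 2 glial markers and 1 endothelial marker with an adjusted p did not pass. The part of these changes in those of the assembly factors was not tested.

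In input RNA 20 of the 42 assembly factor genes were higher after knockdown and 1 was lower, by the authors' DESeq2 adjusted p under 0.05. Over all 12807 genes with an adjusted p, 32.6% were called, 17.1% higher and 15.5% lower. Every assembly factor was well expressed, with a mean of at least 802, and among the 7276 genes at or above that mean 25.0% were called higher and 18.8% lower. The median log2 fold change of the 42 genes was 0.18, beside -0.0023 for all genes tested and 0.03 for those at or above the lowest member's mean. The changes were modest: the 20 risen genes stood between 112% and 148% of control. The remaining 21 genes lay between -0.16 and 0.20 on the log2 scale, 16 above 0 and 5 below.

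**Figure D1:**
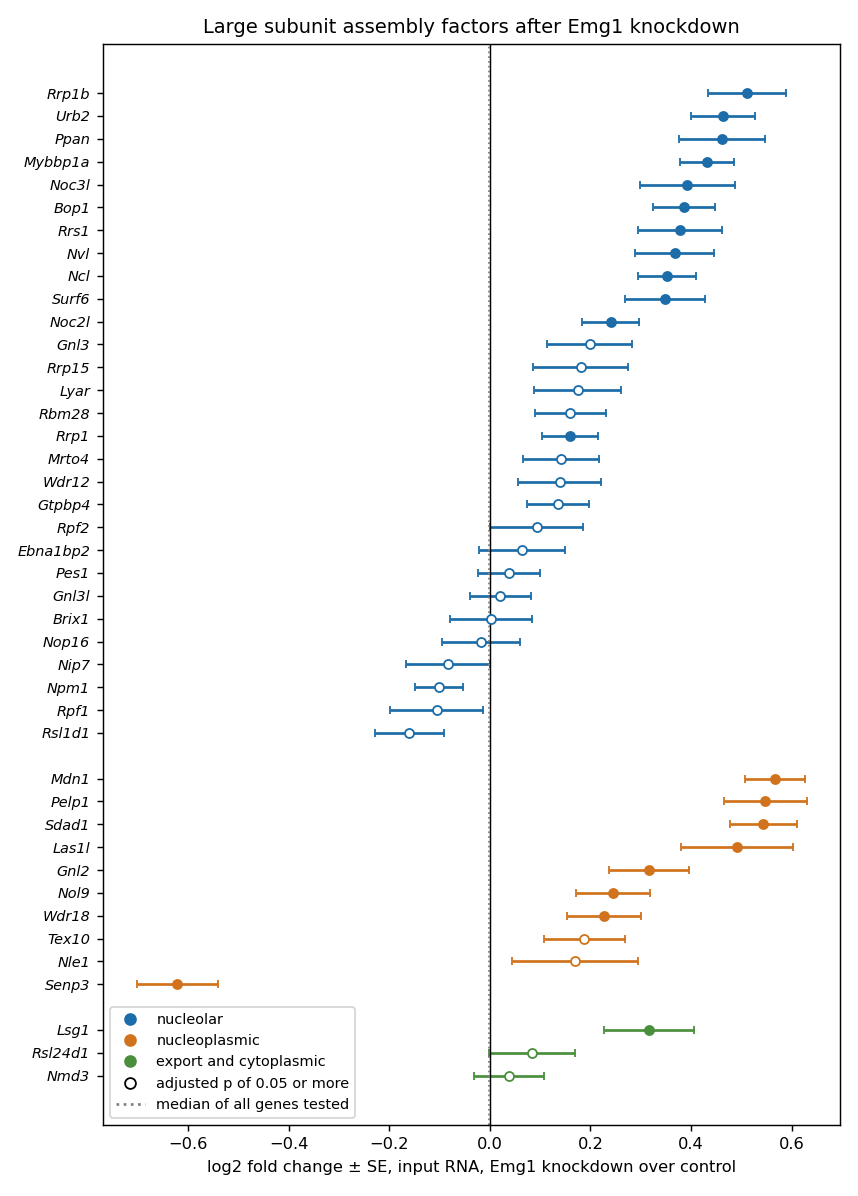
Log2 fold change of each of the 42 genes in input RNA, Emg1 knockdown over control, on the x axis, with bars of 1 SE and genes grouped by assembly step. Filled points passed an adjusted p of 0.05; they reach 0.57 for Mdn1 at the top of the nucleoplasmic group, and Senp3 alone lies far to the left at -0.62.

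At the nucleolar steps 12 of 29 genes rose and 0 fell by the authors' DESeq2 test, with 2 lower at an unadjusted p under 0.05, and the median log2 fold change was 0.16. Centring, by subtracting 0.0077 from every fold change, made 1 of these a call, Rsl1d1, and an adjusted p under 0.1 made 2. The complex of PES1, BOP1 and WDR12, needed for spacer removal from the large subunit precursor, gave unlike values at the RNA level. Bop1 rose by 0.39 ± 0.06 in the authors' deposited table (DESeq2 adjusted p = 8.52e-09). Its partners Wdr12 at 0.14 ± 0.08 and Pes1 at 0.04 ± 0.06 did not pass, and the 95% interval of Pes1, -0.08 to 0.16 from the SE in the authors' deposited table, did not reach the value of Bop1; the difference itself was not tested. The span of Bop1 overlaps those of 2 other coding genes in RefSeq, Mroh1 and Scx. In all 10 members overlap another coding gene, among them the risen Bop1, Noc2l, Mybbp1a, Las1l and Gnl2, so their values may include reads of the neighbour.

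RRS1 and RPF2 together bring the 5S ribonucleoprotein to the particle. Rrs1 rose by 0.38 ± 0.08 (DESeq2 adjusted p = 6.16e-05), while Rpf2 was at 0.09 ± 0.09 (DESeq2 adjusted p = 0.484) in the authors' deposited table. Their 95% intervals, 0.21 to 0.54 for Rrs1 and -0.09 to 0.27 for Rpf2, overlap, and the difference was not tested. RPF2 carries a Brix domain, a fold found in several factors that bind the precursor. Of the other Brix domain genes, Ppan rose by 0.46 ± 0.09, and Rpf1 at -0.11 ± 0.09 and Brix1 at 0.00 ± 0.08 did not pass in the authors' deposited table.

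Both Noc genes rose. Noc3l, whose yeast counterpart accompanies the nascent large subunit, rose by 0.39 ± 0.09, and Noc2l, also known as an inhibitor of histone acetyltransferases, by 0.24 ± 0.06 in the authors' deposited table (DESeq2 adjusted p = 0.000244 and 0.000199). Among 10 further factors of early particles 4 rose. They were Rrp1b at 0.51 ± 0.08, the nucleolar scaffold gene Urb2 at 0.46 ± 0.06, Surf6 at 0.35 ± 0.08 and Rrp1 at 0.16 ± 0.06 in the authors' deposited table. Rrp1 and Rrp1b encode related proteins, counterparts of a single yeast factor, and both rose. The other 6 were Rrp15, Rbm28, Ebna1bp2, Nop16, Nip7 and Rsl1d1, between 0.18 and -0.16. Rsl1d1 had the lowest value of the nucleolar genes, -0.16 ± 0.07 (DESeq2 adjusted p = 0.0614, and 0.0484 with centred fold changes), and Rbm28, with 0.16 ± 0.07 (adjusted p = 0.0661), lay equally far on the other side of 0 in the authors' deposited table.

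Nvl, an AAA ATPase that works on nucleolar particles, rose by 0.37 ± 0.08 in the authors' deposited table (DESeq2 adjusted p = 2.77e-05). The GTPase genes of the nucleolus did not pass: Gnl3, which encodes nucleostemin, was at 0.20 ± 0.08 (adjusted p = 0.0577), Gtpbp4 at 0.14 ± 0.06 (adjusted p = 0.0828) and Gnl3l at 0.02 ± 0.06 in the authors' deposited table. Of the abundant proteins with several nucleolar roles, nucleolin and MYBBP1A had higher transcripts, Ncl by 0.35 ± 0.06 and Mybbp1a by 0.43 ± 0.05 in the authors' deposited table. Npm1, which encodes nucleophosmin, was at -0.10 ± 0.05 (DESeq2 adjusted p = 0.0926) and Lyar at 0.17 ± 0.09 (DESeq2 adjusted p = 0.108) in the authors' deposited table. Npm1 has processed pseudogenes, and its count is uncertain where reads could be split among them.

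At the nucleoplasmic steps 7 of 10 genes rose and 1 fell, with a median log2 fold change of 0.28. Mdn1 had the largest rise among the 42 genes. It encodes a giant AAA ATPase that pulls factors off the particle, lies on mm10 chromosome 4 from 32657114 to 32775217, and stood at 148% of control, 0.57 ± 0.06 in the authors' deposited table (DESeq2 adjusted p = 3.06e-19). NLE1 is one of the proteins on which MDN1 acts; Nle1 was at 0.17 ± 0.13 (DESeq2 adjusted p = 0.322) in the authors' deposited table, the least precise value of the list. The GTPase gene Gnl2 rose by 0.32 ± 0.08 and Sdad1, counterpart of a yeast factor of nucleoplasmic particles, by 0.54 ± 0.07 in the authors' deposited table.

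The assembly of PELP1, TEX10, WDR18 and SENP3 with LAS1L and NOL9 held the widest range among the groups of factors. PELP1, TEX10 and WDR18 form the scaffold, LAS1L is the endonuclease that cuts the second internal spacer, NOL9 is the kinase that works with it, and SENP3 removes SUMO from PELP1. Pelp1 rose by 0.55 ± 0.08, Las1l by 0.49 ± 0.11, Nol9 by 0.24 ± 0.07 and Wdr18 by 0.23 ± 0.07 in the authors' deposited table (DESeq2 adjusted p = 9.24e-10, 0.000102, 0.00395 and 0.00915). Tex10 was at 0.19 ± 0.08 (DESeq2 adjusted p = 0.0598) in the authors' deposited table. Senp3 went the other way, to 65.0% of control, and it was the only one of the 42 genes called lower. Its log2 fold change was -0.62 ± 0.08, with a 95% interval of -0.78 to -0.46 and a DESeq2 adjusted p of 8.99e-13 in the authors' deposited table. Senp3 lies on mm10 chromosome 11 from 69673110 to 69682084 and overlaps the antisense gene Tnfsf13os, and whether the counting used strand is not stated.

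At export and in the cytoplasm 1 of 3 genes rose and 0 fell by the authors' DESeq2 test, and also 0 were lower at an unadjusted p under 0.05. Lsg1, a cytoplasmic GTPase that frees the export adaptor, rose by 0.32 ± 0.09 (DESeq2 adjusted p = 0.00206), while the adaptor gene Nmd3 was at 0.04 ± 0.07 (DESeq2 adjusted p = 0.728) in the authors' deposited table. The 95% interval of Nmd3 was -0.10 to 0.17. Rsl24d1, which holds the place of RPL24 until late in the pathway, was at 0.08 ± 0.09 (DESeq2 adjusted p = 0.497) in the authors' deposited table. The share of genes called higher was 41.4% at nucleolar, 70.0% at nucleoplasmic and 33.3% at cytoplasmic steps, with Senp3 called lower in addition. Over all genes with an adjusted p this share was 17.1%, and among those at or above the lowest member's mean 25.0%. The difference between steps was not tested, and 3 genes are too few to describe a step.

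**Figure D2:**
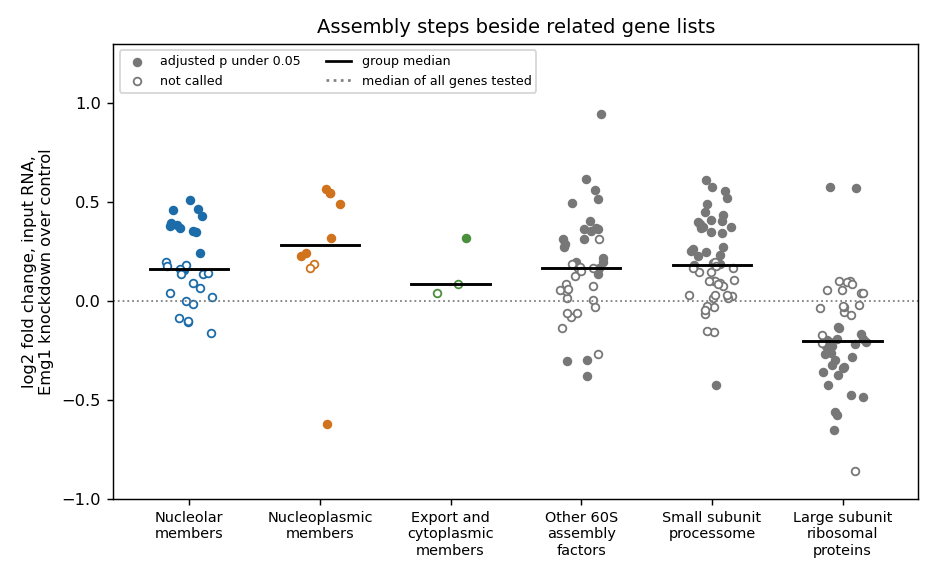
Log2 fold changes in input RNA, Emg1 knockdown over control, on the y axis, for the members by assembly step and for 3 related gene lists on the x axis. Each point is a gene, filled where its adjusted p was under 0.05, and the bars are medians, from 0.28 for nucleoplasmic factors to -0.20 for large subunit ribosomal proteins.

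A list of 42 further large subunit assembly factors gave counts near those of the members. In it 19 rose and 3 fell, with a median log2 fold change of 0.17. The 8 with the smallest adjusted p included the nuclear exosome gene Exosc10 at 0.49 ± 0.07, Znhit6, a factor of box C/D snoRNP assembly, at 0.51 ± 0.08, the rRNA methyltransferase gene Nop2 at 0.40 ± 0.07, Nol8 at 0.56 ± 0.10 and Ftsj3 at 0.37 ± 0.07 in the authors' deposited table. Spata5, whose yeast counterpart is the AAA ATPase that frees the counterpart of RSL24D1 in the cytoplasm, rose by 0.36 ± 0.08 in the authors' deposited table. Nsa2 fell by 0.38 ± 0.08 and Rpl7l1 by 0.30 ± 0.06 in the authors' deposited table. The third lower gene was Heatr3, named after its value was seen, which helps to import ribosomal protein RPL5; it fell by 0.30 ± 0.08 in the authors' deposited table. On the small subunit side, 25 of 51 processome and maturation genes rose and 1 fell, with a median of 0.18. The ribosomal proteins of the large subunit contrasted with their assembly factors: 2 of 46 rose, 27 fell, or 58.7%, and the median was -0.20. Of all genes tested 17.1% rose and 15.5% fell, and of those at or above the lowest member's mean 25.0% rose and 18.8% fell. The means of the ribosomal protein genes ranged from 61.9 to 75355. Near-identical pseudogenes exist for such genes, so the values of this list are uncertain where reads could be split.

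For 3 factors that resemble a ribosomal protein, the protein gene can be set beside the factor. MRTO4 occupies the site of RPLP0 on the nuclear particle. Mrto4 was at 0.14 ± 0.08 (DESeq2 adjusted p = 0.141) and Rplp0 at -0.22 ± 0.05 (DESeq2 adjusted p = 1.70e-05) in the authors' deposited table. Rsl24d1 was at 0.08 ± 0.09, given above, and Rpl24 at -0.17 ± 0.06 (DESeq2 adjusted p = 0.0147) in the authors' deposited table. Rpl7l1 and its paralog Rpl7 fell to a similar degree, by 0.30 ± 0.06 and 0.34 ± 0.06 in the authors' deposited table. Near-identical pseudogenes exist for ribosomal protein genes, so the values of Rplp0, Rpl24 and Rpl7 are uncertain where reads could be split.

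Among the 42 genes the size of the change was described against 2 other properties. Across the 42 genes, which are not independent replicates, the log2 fold change had a Spearman rho of 0.34 with the length of the RefSeq gene span, introns included, and of -0.02 with the mean expression. Across the 6975 genes at or above the lowest member's mean that matched a RefSeq span, the same rho values were 0.14 and 0.02. The risen genes had a median span of 23.2 kb and those not called 13.8 kb. The median SE was 0.08 in both groups.

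Promoters of the members are shown around the E-box CACGTG, the site read by MYC and related factors. Risen members and those not called can then be compared for shared letters. RefSeq promoters of mouse GRCm38.p6, from 250 bases before to 50 after a gene start, were matched for 36 of the 42 genes. CACGTG, which reads the same on both strands, was found in 9 of the 36. The windows below run 5′ to 3′ on the strand of the gene, with the E-box in capitals and up to 12 bases on each side. The first 4 genes rose in input RNA and the last 5 did not pass.
Mdn1: gaattccttcacCACGTGtgtgtc
Sdad1: agcggcgtgtccCACGTGccgtttccggtt
Pelp1: tttcctgcagacCACGTGtccggcctgcgc
Mybbp1a: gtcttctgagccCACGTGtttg
Nle1: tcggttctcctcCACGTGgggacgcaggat
Nmd3: cgccccttgctaCACGTGtattctttgacc
Pes1: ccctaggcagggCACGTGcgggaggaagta
Rpf2: aagtaatcggtaCACGTGcattcgctaagg
Tex10: gcgacctgcggtCACGTGagcgcggcgagg

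The E-boxes of these genes sat at different distances from the start. Those of Mdn1 (chr4:32657145-32657168, plus strand) and Mybbp1a (chr11:72441355-72441376, plus strand) began at bases 39 and 41 after the start. In Sdad1 (chr5:92309986-92310015, minus strand) and Nle1 (chr11:82908355-82908384, minus strand) it began at bases 22 and 24 after the start. That of Pes1 (chr11:3963965-3963994, plus strand) began at base 3, and that of Tex10 (chr4:48473449-48473478, minus strand) at base -3. The remaining ones, in Rpf2 (chr10:40246988-40247017, minus strand), Nmd3 (chr3:69721929-69721958, plus strand) and Pelp1 (chr11:70410243-70410272, minus strand), began at bases -26, -114 and -229, counted back from a start. Rpf2 has another annotated start in the table, from which the same E-box begins at base 35.

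The share of genes with CACGTG was 25.0% among the members, against 11.7% of the 9631 genes with an adjusted p and a promoter. It was 8.09% of all 27025 genes with a promoter, and 7.15% when counted over all 32851 promoters. The small subunit processome list had a higher share than the members, 30.2%, with 13 of 43 genes. Among the members CACGTG did not follow the call: 4 of 17 risen genes and 5 of 18 genes not called had it. The related letters CGCGTG or CACGCG, which are each other's reverse complement and can overlap each other, were found in 15 of 36 members, or 41.7%. The share was 25.6% of the processome list, 20.1% of genes with an adjusted p, 10.5% of all genes with a promoter and 9.27% of all promoters. Senp3, the gene that fell, had CACGCG in its promoter and no CACGTG. The median GC content of the promoters was 59.5% for the members, 61.0% for genes with an adjusted p and 52.7% for all promoters. A match of letters is a description of the window and not a binding site.

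The authors' list of 2114 differential m6A peaks held 20 peaks on 18 of the 42 genes, or 42.9% of them, with positions on mm10. Such a peak was on 14.8% of genes with an adjusted p, and on 22.0% of genes at or above the lowest member's mean. Of the 20 peaks 17 had a negative and 3 a positive change. With an enrichment of IP over input of at least 2, 11 negative and 3 positive ones remained. The shares of genes given here count peaks of any enrichment and were not computed at that limit. Since the list names no numerator for the change, the sign is given as deposited and is not read as gain or loss. Negative-change peaks were on 16 genes, 38.1%, where the share was 7.89% of genes with an adjusted p and 12.2% at or above the lowest member's mean. Positive-change peaks were on 3 genes, 7.14%, close to the 7.21% and 10.3% of the same sets.

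**Figure D3:**
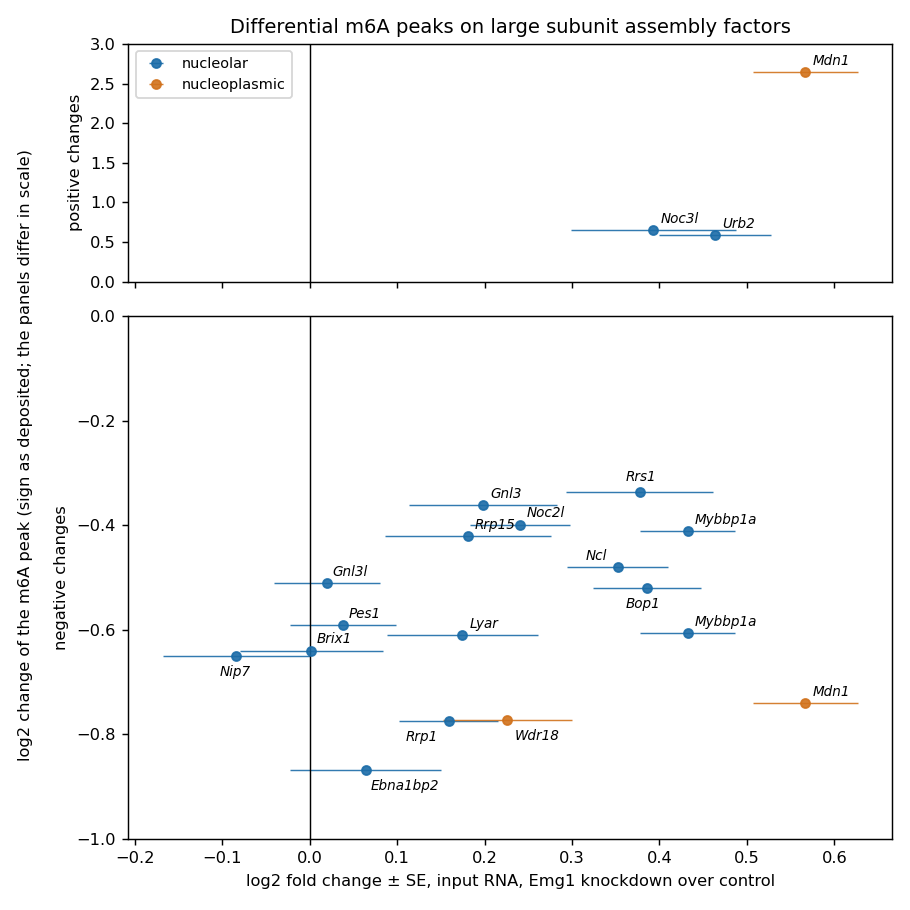
Log2 change of each differential m6A peak on the y axis, in a panel for each sign with its own scale, against the log2 fold change of its gene in input RNA with bars of 1 SE on the x axis. The 17 negative-change peaks lie between -0.87 and -0.34, and their relation to the input change was not tested. The 3 positive-change peaks belong to genes that rose, and are too few to relate to the input change.

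The differential peaks were mostly on genes of the nucleolar steps, which also hold most of the 42 genes. They were found on 16 of 29 nucleolar genes (55.2%), 2 of 10 nucleoplasmic genes (20.0%) and 0 of 3 cytoplasmic genes. Of the other large subunit factors 9 of 42 (21.4%) carried one, of the processome list 8 of 51 (15.7%) and of the large subunit ribosomal proteins 2 of 46 (4.35%). The share was 14.8% of genes with an adjusted p and 22.0% of those at or above the lowest member's mean. Differences between these lists were not tested. Peaks of negative change were about as common on genes that rose in input, 8 of 20, as on those not called, 8 of 21, while Senp3 carried none. Over genes at or above the lowest member's mean, negative-change peaks were on 20.5% of those that rose and 9.93% of those not called. Positive-change peaks were on 3 of the 20 risen members and 0 of the 21 not called. Over genes at or above the lowest member's mean they were on 7.58% of those that rose and 10.6% of those not called.

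Rrs1, a gene of a single short span, carried the most enriched peak of the group. In the authors' deposited table its fold enrichment of IP over input was 47.9 and its change -0.34 (chr1:9545794-9547099, 1306 bases). The enrichment is the authors' value for each peak, and the median was 3.87 over the 20 peaks and 5.53 over all 2114. On Ncl, a peak of 4 blocks (chr1:86356162-86357430) had a change of -0.48, an enrichment of 7.83 and the smallest false discovery rate of the 20, 1e-171, in the authors' deposited table. The span of Ncl also holds small nucleolar RNA genes. Rrp15 carried a peak of 5 blocks over nearly the whole span (chr1:186721087-186749358), with a change of -0.42 and an enrichment of 10.6 in the authors' deposited table.

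Partners in a complex did not always share a differential peak. Wdr12 had none beside Bop1 and Pes1, Rpf2 none beside Rrs1, and of the 6 genes around Pelp1 and Las1l only Wdr18 had one. Both Bop1 and Pes1 carried a negative-change peak, of -0.52 (chr15:76466839-76477269) and -0.59 (chr11:3977668-3978994), with low enrichments of 1.80 and 1.70 in the authors' deposited table. Both Noc genes carried one, but of unlike sign: -0.40 on Noc2l (chr4:156245903-156247436, enrichment 2.97) and 0.65 on Noc3l (chr19:38789234-38789683, enrichment 12.7) in the authors' deposited table. Mdn1 had both signs, a short peak of 180 bases with a change of 2.64 (chr4:32733500-32733679, enrichment 3.05) and, further 3′, a peak of 10 blocks with -0.74 (chr4:32756448-32765710, enrichment 3.65) in the authors' deposited table. The third positive-change peak was on Urb2 at 0.58 (chr8:124027975-124028992, enrichment 23.1) in the authors' deposited table.

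The other negative-change peaks were on nucleolar genes, except that of Wdr18. Mybbp1a had one at each end of its span, -0.61 at the 5′ end (chr11:72441378-72441689, enrichment 1.67) and -0.41 at the 3′ end (chr11:72451013-72451550, enrichment 4.09) in the authors' deposited table. Brix1 at -0.64 with an enrichment of 8.23, Gnl3 at -0.36 with 6.23, Lyar at -0.61 with 5.36 and Nip7 at -0.65 with 4.58 were moderately enriched in the authors' deposited table. Gnl3l at -0.51 had an enrichment of 2.01, and those of Wdr18 at -0.77, Ebna1bp2 at -0.87 and Rrp1 at -0.78 were 1.98, 1.57 and 1.11 in the authors' deposited table. The peaks with the 3 most negative changes were thus among the least enriched of the 20, and that on Rrp1 covered only 61 bases. The largest false discovery rate among the 20 peaks was 0.000468, that of Noc3l, in the authors' deposited table, and the peak list gives no error for a change.

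**Figure D4:**
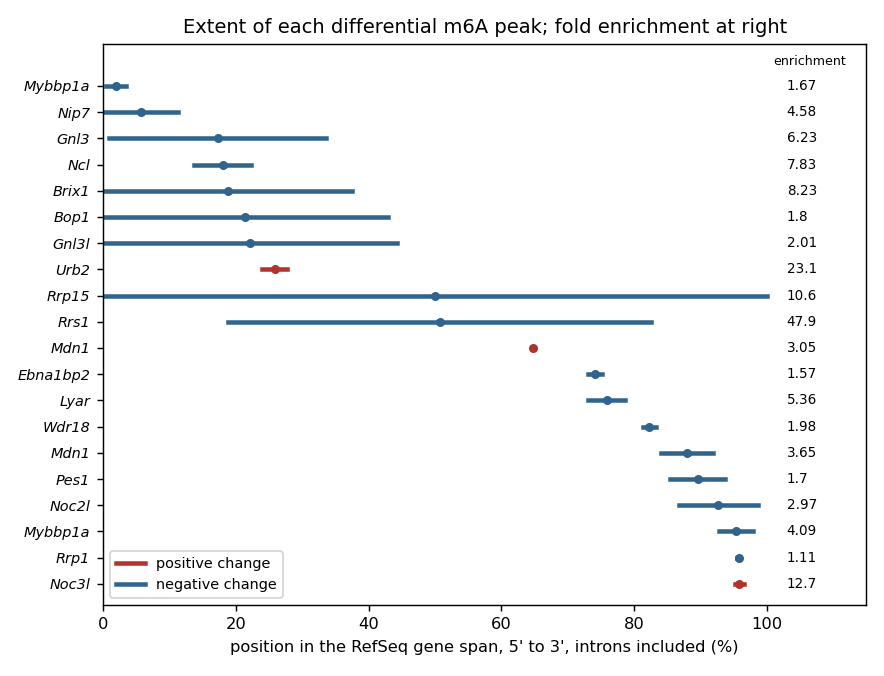
Extent of each of the 20 differential m6A peaks as a percent of its RefSeq gene span from the 5′ end, introns included, on the x axis, with 1 row per peak and its fold enrichment at the right. Dots mark the middle of the extent; 7 peaks begin in the first 1% of the span and 9 lie in the last 30%.

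Peaks that began at the 5′ end and peaks near the 3′ end of the genes were both represented. Of the 20 peaks 7, or 35.0%, began in the first 1% of the gene span, namely on Mybbp1a, Nip7, Gnl3, Brix1, Bop1, Gnl3l and Rrp15, against 18.2% of the 2026 peaks of the whole list that could be placed on a span. Those of Nip7 and Mybbp1a ended at 11.3% and 3.48% of the span. The others had several blocks and reached further: Gnl3 to 33.6%, Brix1 to 37.6%, Bop1 to 42.9%, Gnl3l to 44.3% and Rrp15 over nearly the whole span. All 7 were of negative change, as were 17 of the 20 peaks. Another 9, or 45.0%, lay wholly in the last 30% of the span, against 51.2% of the whole list. One block made up 8 of the 20 peaks, 40.0%, against 50.6% of all differential peaks. Whether a peak lay in coding sequence or in an untranslated region was not analysed here.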

How the data were processed

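The submitters' processing notes name the mm10 build and the tools Trimmomatic, HISAT2 and DESeq2; the read counter and the peak caller are not stated there. The deposited input table gives a mean normalized count per gene, a signal, with a log2 fold change, its SE, a Wald statistic (a score), a p-value and an adjusted p, all computed by the authors. The deposited peak list gives a fold enrichment ratio of IP over input, a log2 change and log10 scores of its significance, by the authors. No adjusted p was given for genes with a mean at or below 22.7.

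Neither table holds values per library, so the depth of each library is unknown and no model was refitted. The direction, knockdown over control, was read from the negative value of Emg1. Members are read from the fit over all genes, with calls at the authors' adjusted p under 0.05 and intervals of 1.96 SE. The members and lists were chosen with earlier results of these data known. Every member was named, with up to 8 other factors by smallest adjusted p and the 3 ribosomal protein paralogs. Spans and promoters came from RefSeq GRCm38.p6. Alternatives were thresholds of 0.01 and 0.1, adjustment over every gene, a minimum mean of 100, centring, a minimum change of 0.3, other member sets and stricter peak limits. The adjustment was tested on simulated data. The software was Python 3.11.15 with pandas 2.3.3, scipy 1.17.1, numpy 2.4.6 and, for plots, matplotlib 3.10.9.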

Additional observations from a re-analysis of the deposited data

How the results depend on the processing

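The count of risen members lay between 16 and 24 under the thresholds, adjustments, minimum change and centring tried, and was 18 without Ncl, Npm1, Mybbp1a and Lyar. Without the 10 members that overlap another coding gene, a setting chosen after seeing the data, it was 15 of the remaining ones. The count of lower members was 3 at an adjusted p under 0.1, of which 2 were nucleolar. It was 2 with centred fold changes, of which 1 was nucleolar: Rsl1d1 then passed at -0.17 (adjusted p = 0.0484). Centring subtracted 0.0077 from every value, while the median of all genes tested was -0.0023. A shift by the latter would raise values and not lower them. Centring also moved Brix1 from 0.0020 to -0.0057, on the other side of 0. Placing Gtpbp4 and Mrto4 at the step where they leave the particle could not move a count of calls, because neither gene was called. It lowers the share called higher at cytoplasmic steps and raises that at nucleolar steps, because the group sizes change. Peaks with a fold enrichment of at least 2 left 11 of negative change and 3 of positive change, and a false discovery rate under 0.001 left all 20. No paired analysis was possible because the tables hold no value per library, and for the same reason no library could be left out. The precision was lowest for Nle1, the member with the lowest mean expression.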
